A study of Mus musculus with 10 samples.

Results

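The genes described here are 40 genes of protein folding in the endoplasmic reticulum (ER) and of the unfolded protein response, out of 40620 genes counted by RNA-seq in MC3T3-E1, a line of pre-osteoblasts from mouse. They were chosen by name and found by their Ensembl gene identifiers, and all 40 were matched. The cells were sequenced at 5 stages, each with a replicate A and a replicate B, which makes 10 samples. Subconfluent and confluent cells were kept in growth medium, αMEM with serum. The 24h, 14d and 21d cells were kept after confluence in osteogenic medium, which adds β-glycerophosphate at 10 mM and ascorbic acid at 50 µg/ml to αMEM with serum. The line is a subclone of an established cell line, and the sources used here do not say whether replicates came from separate cultures, so p-values measure the spread between these samples, which may be technical.

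Proteins that a cell secretes or places in its membranes are threaded into the ER, where chaperones hold them while they fold and oxidoreductases join their cysteines. When unfolded protein accumulates, 3 kinds of sensor in the ER membrane, IRE1 (encoded by Ern1), PERK (Eif2ak3) and ATF6, start the unfolded protein response: IRE1 splices the mRNA of the transcription factor XBP1, ATF6 is cut free to act as a transcription factor, and PERK slows translation while the factor ATF4 and its target CHOP (Ddit3) are made. Osteoblasts secrete collagen and other matrix in bulk, and XBP1, PERK and the related factor OASIS (Creb3l1) are known for roles in bone formation. Splicing, cleavage and phosphorylation of these proteins are not read by gene counts, so what follows concerns mRNA levels.

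Several of these genes share a regulatory sequence, the ER stress response element (ERSE), which NF-Y and ATF6 are known to bind. Its letters are CCAAT, then 9 bases of any kind, then CCACG. Promoter windows of 300 bases, reaching 250 bases before the RefSeq transcription start on GRCm38.p6, were at hand for 33 of the 40 genes. On either strand, the full element lay in the windows of 9 of these 33 genes (27.3%), namely Hspa5, Hsp90b1, Calr, Canx, Creld2, Dnajc3, Pdia6, Syvn1 and Derl3. It lay in 39 of the 32851 windows of all genes (0.119%). Some genes have more than 1 window, and counted by window it lay in 9 of the 36 windows of the 33 genes. The promoter of Hspa5, which encodes BiP, the ER's Hsp70 chaperone, is shown as the usual example of such an element. It covers the 150 bases before the start at chr2:34771940-34772089, plus strand, with the exact match in capitals.
Hspa5: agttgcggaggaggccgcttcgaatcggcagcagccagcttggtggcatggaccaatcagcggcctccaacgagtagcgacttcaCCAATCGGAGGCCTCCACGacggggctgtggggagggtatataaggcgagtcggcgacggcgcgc

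The next 5 sequences show how the element sits in 4 other genes, with 15 bases on each side and the match in capitals. Hsp90b1, which encodes the chaperone GRP94, held it in both orientations, at chr10:86705623-86705671 and chr10:86705518-86705566. Calr, which encodes the calcium-binding chaperone calreticulin, held it in the reverse orientation at chr8:84847060-84847108, and Syvn1, a ubiquitin ligase, held it close to its start at chr19:6046517-6046565. Derl3 is shown because it held the element at chr10:75893227-75893275 and was nearly silent in these cells. Hsp90b1 and Calr lie on the minus strand, Syvn1 and Derl3 on the plus strand, and each sequence is read along its gene.
Hsp90b1, forward: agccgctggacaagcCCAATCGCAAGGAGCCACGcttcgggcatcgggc
Hsp90b1, reverse: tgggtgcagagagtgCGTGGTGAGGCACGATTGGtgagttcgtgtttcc
Calr: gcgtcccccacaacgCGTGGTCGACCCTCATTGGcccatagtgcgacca
Syvn1: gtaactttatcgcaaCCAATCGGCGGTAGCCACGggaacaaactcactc
Derl3: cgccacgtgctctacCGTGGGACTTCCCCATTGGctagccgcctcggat

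The related element ERSE-II, whose letters are ATTGG, 1 base of any kind and CCACG, lay in the windows of 2 genes, Herpud1 and Dnajb11, and in 12 of all windows (0.0365%). Herpud1, whose product links the parts of the ER degradation machinery, carried it 52 to 42 bases before its start at chr8:94386362-94386402, plus strand, shown with 15 bases on each side.
Herpud1: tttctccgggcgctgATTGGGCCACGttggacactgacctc
Both elements contain CCACG, so the genes that carry them are among the 25 of 33 (75.8%) with CCACG in a window. Counted by window, CCACG was in 26 of the 36 windows of the 33 genes and in 32.8% of all windows. The XBP1 and ATF6 motif TGACGTGG, which also contains the reverse complement of CCACG, was found for Sec23a, Sec24d and Txndc5 and in 0.676% of all windows. The ATF4 motif TTGCATCA was found for Herpud1 and in 0.895% of all windows. A match describes the letters and no binding was measured.

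Together, the 40 genes took 0.515% to 0.73% of all counts in the 8 samples up to 14d, and 1.22% and 1.28% in the 21d samples. Their summed RPKM, a level per gene length and per number of reads, was 3194 and 3204 in subconfluent, 2968 and 2883 in confluent, 2649 and 2684 in 24h, 2400 and 2357 in 14d, and 5695 and 6060 in 21d cells (replicates A and B). The sum was thus lower at each successive stage up to 14d and highest at 21d, with no overlap between the replicates of these neighbouring stages. RPKM does not allow for a shift shared by most genes, as the scaled fit below does. There the median change of the 39 tested genes was −0.12 for confluent against subconfluent cells. It was −0.07 for 24h against confluent and 0.0 for 14d against 24h cells. For 33 of the 40 genes the highest stage mean in RPKM was that of 21d, and for 20 the lowest was that of 14d. The matching shares of all genes were not computed, so whether these counts are unusual was not tested. The 33 include the nearly silent Derl3, with means of 0.0638 RPKM at 21d and 0.0635 at 14d. The stages ranked here also differ in library index sequences, as described below. In these bulk samples, fewer cells of a type and less RNA per cell cannot be told apart.

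**Figure D1:**
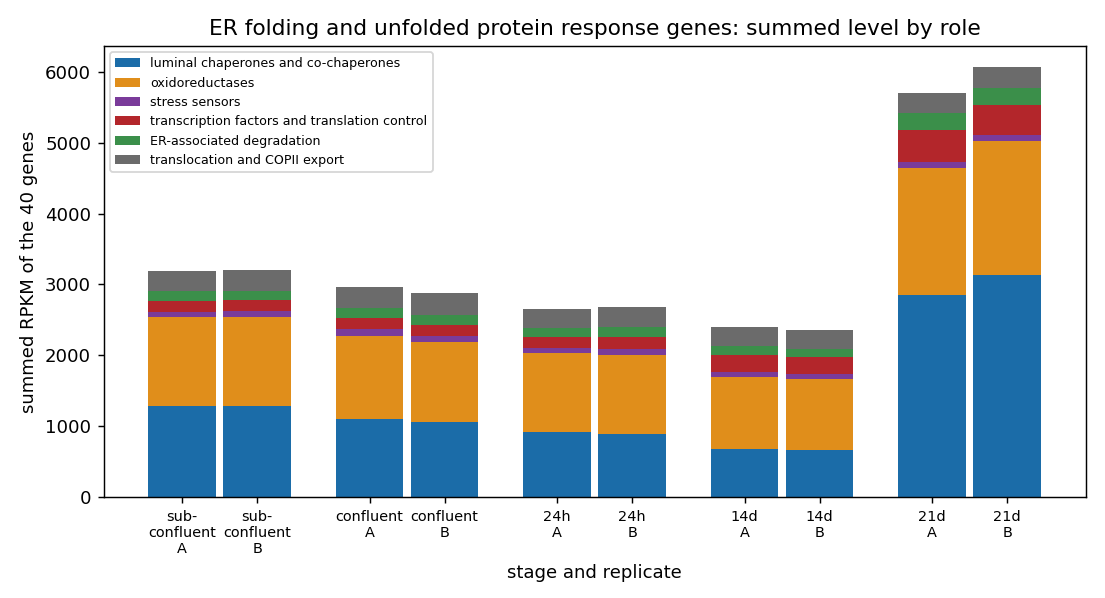
Summed RPKM of the 40 genes in each of the 10 samples, stacked by role, with stage and replicate on the x axis. The chaperones rise from 676.1 and 662.8 at 14d to 2855 and 3133 at 21d, while the genes of translocation and COPII export stay between 261.4 and 313.5.

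Counts were tested across all genes with edgeR's quasi-likelihood test, and a gene was called at a Benjamini-Hochberg adjusted p under 0.05 over the 20808 genes tested. All changes below are log2 fold changes from that fit with their standard error (SE). Of the 40 genes 39 were tested, and 30 of these 39 differed over the 5 stages, where 48.9% of all genes tested did. The 9 that were not called were Sec61a1, Sec61b, Sec23a, Sec24d and Mia3, which act in translocation and export, the oxidoreductases Pdia5 and Txndc5, the sensor Atf6b and Sel1l of ER-associated degradation. Derl3 was left out by the filter on low counts, with 1 to 9 counts per sample and 0.0191 to 0.0847 RPKM.

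The samples differed in depth, with 44736156 to 162939333 counts on genes, and in how closely the replicates matched. Across the 39 tested genes the log2 ratio of replicate A to B had an SD of 0.44 at 24h, against 0.06 to 0.16 at the other stages. For comparisons of the other stages, counts or added genes are therefore also given without the 24h samples. Some of the single genes whose call turns without them are given too. In column names, the subconfluent, confluent and 24h libraries carry a different pair of index sequences from the 14d and 21d libraries, so across these sets an effect of stage and an effect of library set cannot be told apart. By index pair, the steps from subconfluent to confluent, from confluent to 24h and from 14d to 21d lie within a set. The column names do not give the sequencing run. Replicate A of 14d and of 21d carry the same index and a shared lane number, as do replicate A of confluent and of 24h cells. Whether the stages of a step shared a run is thus not known, and an effect of run was not tested. The 9 osteoblast markers summed to 9310 and 9600 RPKM in subconfluent cells, 19900 and 21600 at 14d and 12400 and 13600 at 21d. Bglap, which encodes osteocalcin, had a mean of 2.5 RPKM in subconfluent cells, 1120 at 14d and 1040 at 21d. From 14d to 21d the mean of Col1a1, the main collagen chain of bone, went from 9710 to 5090 RPKM, that of Col1a2 from 5220 to 3030, of Ibsp from 4230 to 2540, of Sp7 from 94.3 to 55.8 and of Alpl from 25.7 to 9.78, while that of Spp1, which encodes osteopontin, went from 283 to 1240. Markers of fat, muscle and endothelium summed to at most 1.09, 0.699 and 0.107 RPKM in any sample, and those of blood and macrophages to 2.42 to 3.98, with Ptprc and Hbb-bs at 0. Chondrocyte markers summed to 34.9 to 214 RPKM, nearly all of it Col2a1, with 206 RPKM at 14d and 75.7 at 21d, and Acan at 0.0206 or less. The part of these markers in the results below was not tested.

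Among neighbouring stages, the step from 14d to 21d had the most genes called. Of the 39 genes tested, 23 were higher at 21d and 0 were lower, where 3.77% of all genes tested were higher and 5.95% were lower. Of these, 16 were more than 2-fold higher, as were 1.52% of all genes. The median change of the 39 genes was 0.72, against −0.03 for all genes tested, and 34 of the 39 changes were positive. In normalised counts (CPM), both 21d replicates exceeded both 14d replicates for 33 genes (30.7% of all genes), were below both for 4 (36.5% of all genes), and overlapped for 2. DESeq2 called 25 higher and 0 lower, and 0 were lower at an unadjusted p under 0.05. Without the 24h samples in the fit, 29 genes were higher and 2 lower, where 10.4% and 14.9% of all genes tested were. Atf6, Ern1, Creb3l2, Sel1l, P4hb and Mia3 were added as higher, and Sec23a and Txndc5 were lower, all by less than 2-fold.

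**Figure D2:**
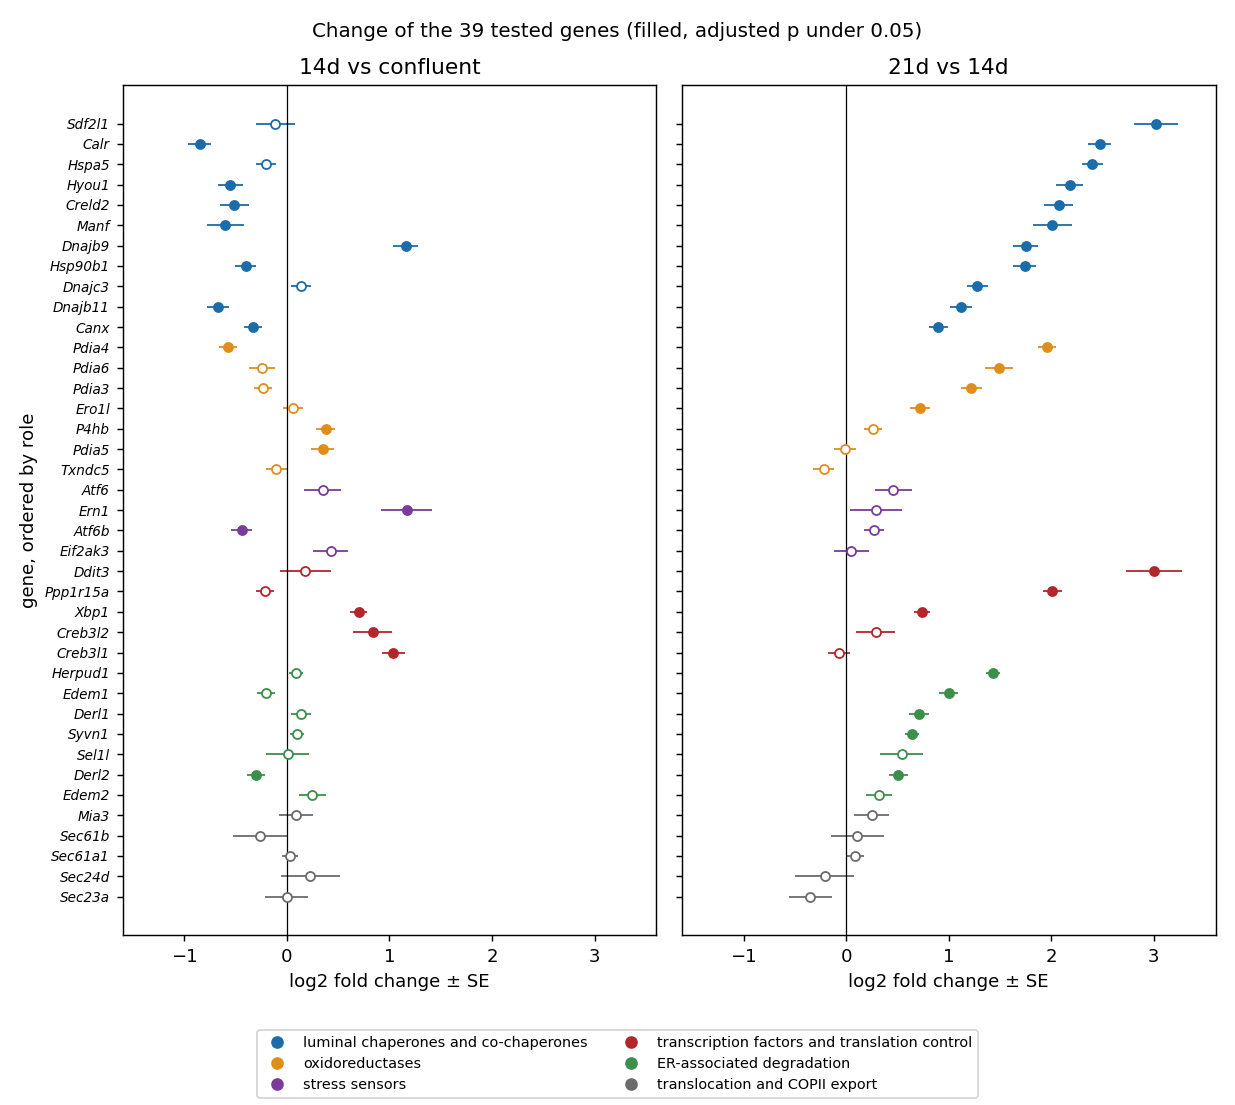
Log2 fold change ± SE of the 39 tested genes, on the y axis by role, at 14d against confluent cells (left) and at 21d against 14d (right), with filled points called at an adjusted p under 0.05. The 11 chaperones lie between 0.90 and 3.02 on the right, and 7 of them are below 0 and called on the left; the 14d samples enter both panels.

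The chaperones and co-chaperones of the ER lumen formed the group that moved furthest from 14d to 21d: 11 of 11 rose, 10 of them more than 2-fold, with a median change of 2.01. Hspa5, the BiP gene whose promoter is printed above, was at 230.2 and 233.5 RPKM in subconfluent, 192.4 and 193.5 in confluent, 174.2 and 170.3 in 24h, 146.9 and 143.0 in 14d, and 770.1 and 844.2 in 21d cells. In RPKM its replicates lay close together at each stage, were lower without overlap at each successive stage up to 14d, and at 21d were above every other sample. In normalised counts the 24h and confluent replicates overlapped, with a change of −0.07 ± 0.10 that was not called (adjusted p = 0.69). The rise from 14d to 21d was 2.40 ± 0.10 SE, which is 5.29-fold (adjusted p = 0.00016). Calr was at 424.0 and 431.7 RPKM in subconfluent, 361.7 and 349.1 in confluent, 303.7 and 289.4 in 24h, 173.7 and 165.6 in 14d, and 932.5 and 1041 in 21d cells. It followed the same course as Hspa5 with a deeper low point, and rose by 2.47 ± 0.11 (5.53-fold, adjusted p = 0.00016). Hsp90b1 was at 312.5 and 307.2 RPKM in subconfluent, 263.3 and 243.2 in confluent, 208.4 and 205.2 in 24h, 163.8 and 167.0 in 14d, and 552.9 and 609.4 in 21d cells. Here too the groups did not overlap, and the rise was 1.74 ± 0.11 (adjusted p = 0.0003).

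Per gene length, the order of the most abundant of the 40 genes changed with this. In subconfluent cells Calr, P4hb, Pdia3, Hsp90b1 and Hspa5 led, in this order, and held 54.9% of the summed RPKM. At 14d P4hb led with 474 ± 3.5 RPKM (SD, n = 2), above Pdia3, Calr, Hsp90b1 and Creb3l1, and Hspa5 ranked 6. At 21d Calr led with 987 ± 76.7 RPKM and Hspa5 ranked 2 with 807 ± 52.4, and the leading 5 genes, then Calr, Hspa5, P4hb, Hsp90b1 and Pdia3, held 60.4%. P4hb with 599 ± 26.4, Hsp90b1 with 581 ± 40 and Pdia3 with 578 ± 23.3 RPKM did not differ beyond their spread at 21d.

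Cofactors of BiP rose as well. Sdf2l1, whose product works with BiP and its DnaJ partners, was at 12.09 and 13.37 RPKM in subconfluent, 13.28 and 17.87 in confluent, 15.4 and 12.19 in 24h, 12.66 and 12.26 in 14d, and 96.32 and 116.1 in 21d cells. Up to 14d it ranged from 12.09 to 17.87, and from 14d to 21d it rose by 3.02 ± 0.21 (8.10-fold, adjusted p = 0.00042), the largest change of the 39 genes beside that of Ddit3. Hyou1, the ER chaperone GRP170 and an exchange factor of BiP, was at 21.55 and 22.31 RPKM in subconfluent, 21.14 and 19.18 in confluent, 11.63 and 15.96 in 24h, 12.1 and 11.64 in 14d, and 55.71 and 57.19 in 21d cells. The 21d samples stood above every other sample, and the rise from 14d was 2.18 ± 0.13 (adjusted p = 0.0003).

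The DnaJ co-chaperones, which stimulate BiP's ATPase, split at 14d. Dnajb9, known as a target of XBP1, was at 5.647 and 4.834 RPKM in subconfluent, 4.518 and 4.391 in confluent, 5.181 and 6.526 in 24h, 8.295 and 8.837 in 14d, and 29.75 and 31.08 in 21d cells. It climbed in 2 steps, and already the 14d samples were above all samples of the 3 earlier stages. Dnajb11, which carries ERSE-II, was at 41.66 and 40.52 RPKM in subconfluent, 37.07 and 35.66 in confluent, 32.4 and 28.52 in 24h, 20.58 and 18.63 in 14d, and 43.39 and 46.37 in 21d cells. In RPKM its samples were lower at each successive stage up to 14d and at 21d were slightly above the subconfluent ones. In normalised counts its 24h and confluent replicates overlapped. Dnajc3, known as an inhibitor of PERK as well as a co-chaperone, was at 20.17 and 19.36 RPKM in subconfluent, 17.26 and 15.25 in confluent, 14.8 and 18.33 in 24h, 15.22 and 15.59 in 14d, and 39.27 and 39.68 in 21d cells. From 14d to 21d the rises were 1.75 ± 0.12 for Dnajb9, 1.12 ± 0.11 for Dnajb11 and 1.28 ± 0.10 for Dnajc3, with adjusted p of 0.00041, 0.0011 and 0.00061.

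Creld2 and Manf encode secreted ER stress proteins. Creld2 was at 47.6 and 50.63 RPKM in subconfluent, 41.14 and 40.76 in confluent, 40.74 and 32.46 in 24h, 25.64 and 23.86 in 14d, and 105.9 and 113.6 in 21d cells. Manf was at 38.41 and 38.7 RPKM in subconfluent, 33.42 and 31.47 in confluent, 35.4 and 24.29 in 24h, 18.46 and 18.47 in 14d, and 76.55 and 79.5 in 21d cells. Both were lowest at 14d and highest at 21d, with 24h replicates that lay far apart, and both rose about 4-fold between these stages: Creld2 by 2.07 ± 0.14 (adjusted p = 0.00041) and Manf by 2.01 ± 0.19 (adjusted p = 0.001). Manf shares 146 exon bases with Dcaf1, on the opposite strand, whose change was −0.27 ± 0.37. Canx, the membrane-bound partner of calreticulin, rose least of the group, by 0.90 ± 0.09, from 78.3 ± 0.569 to 154 ± 1.45 RPKM.

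**Figure D3:**
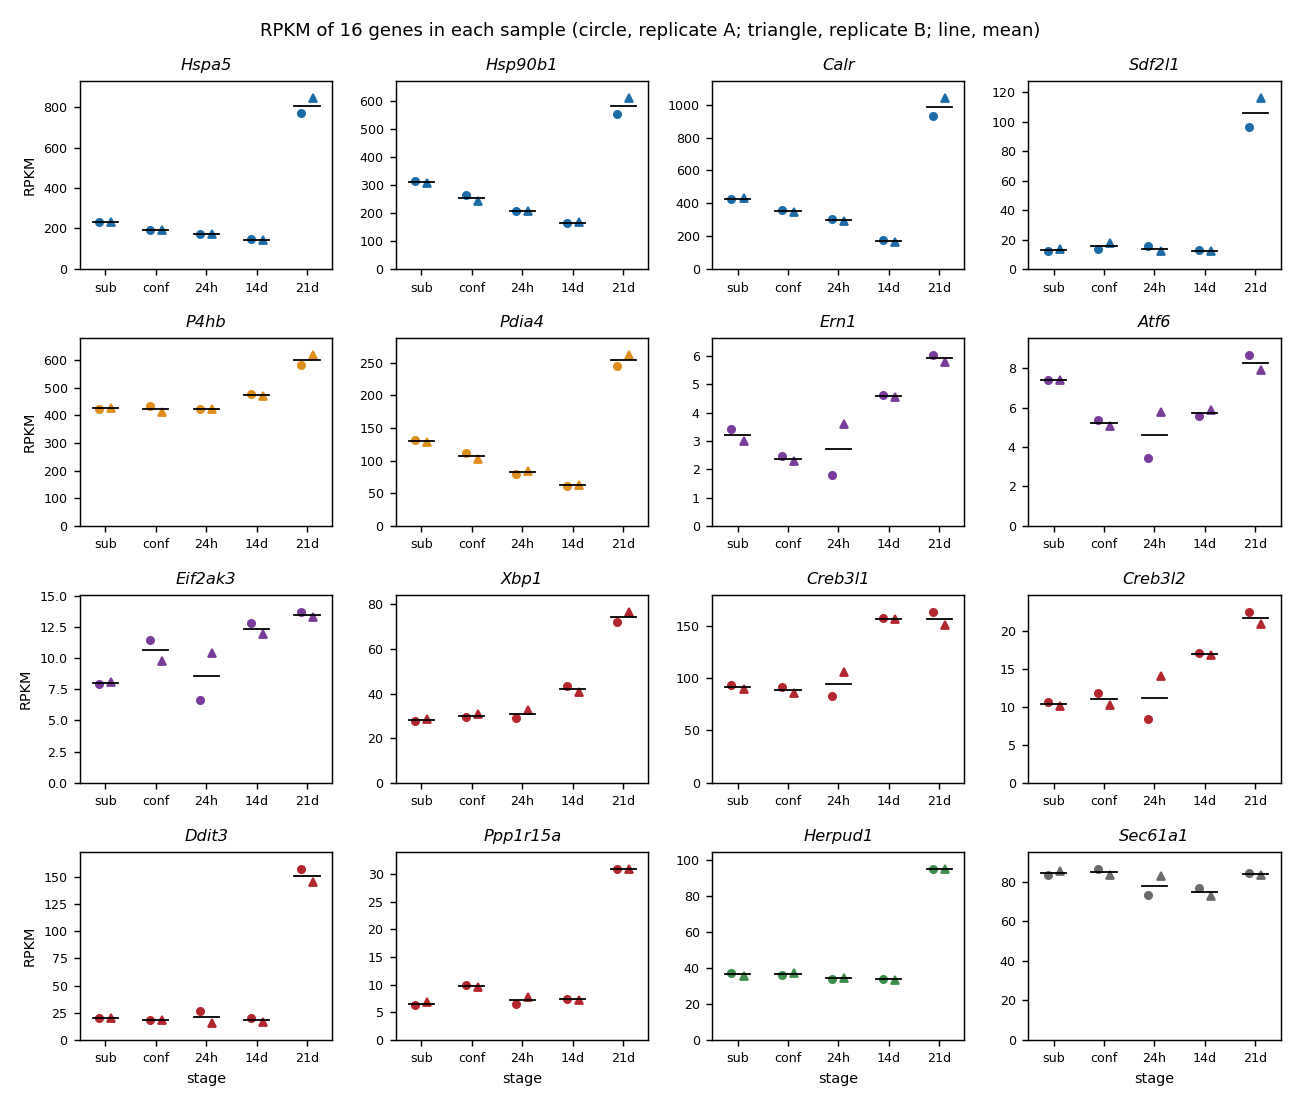
RPKM of 16 genes in each sample, with stages on the x axis (sub, subconfluent; conf, confluent), circles for replicate A, triangles for replicate B and a line at the mean, each y axis starting at 0. Hspa5, Hsp90b1, Calr and Pdia4 decline to 14d and are highest at 21d, Ddit3 and Ppp1r15a are far above every other sample at 21d, and Creb3l1 reaches its 21d level by 14d.

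Among the 7 oxidoreductases, which form and rearrange disulfide bonds, 4 rose from 14d to 21d, with a median of 0.72 for the group. Pdia4 was at 132.2 and 128.5 RPKM in subconfluent, 111.8 and 102.1 in confluent, 79.65 and 84.04 in 24h, 61.8 and 62.29 in 14d, and 245.1 and 261.7 in 21d cells. Its course was that of the chaperones, and it rose by 1.96 ± 0.09 (3.88-fold, adjusted p = 0.00016). Pdia6, which works with BiP, was at 151.8 and 158.4 RPKM in subconfluent, 126.6 and 114.1 in confluent, 128.0 and 106.3 in 24h, 86.42 and 89.21 in 14d, and 252.7 and 265.6 in 21d cells. Pdia3, which works with calreticulin and calnexin on glycoproteins, was at 368.6 and 356.0 RPKM in subconfluent, 322.4 and 319.4 in confluent, 327.4 and 315.2 in 24h, 240.0 and 230.1 in 14d, and 561.1 and 594.1 in 21d cells. Both had their lowest samples at 14d and their highest at 21d, with a rise of 1.49 ± 0.14 for Pdia6 (adjusted p = 0.00091) and of 1.22 ± 0.10 for Pdia3 (adjusted p = 0.00061). Ero1l, the oxidase that recharges these enzymes, rose by 0.72 ± 0.10, from 6.37 ± 0.0939 to 11 ± 0.906 RPKM (adjusted p = 0.004). Pdia3 shares 18 exon bases with Catsper2 on the opposite strand, which rose by 1.03 ± 0.19 (adjusted p = 0.016).

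The other 3 oxidoreductases were not called in this fit. P4hb, protein disulfide isomerase and also a subunit of the collagen prolyl 4-hydroxylase, was at 421.9 and 427.2 RPKM in subconfluent, 433.5 and 411.5 in confluent, 422.7 and 422.6 in 24h, 476.1 and 471.1 in 14d, and 580.2 and 617.6 in 21d cells. It had no low point at 14d, and its 21d samples were the highest, with a change of 0.26 ± 0.09 from 14d that edgeR did not call (adjusted p = 0.13). DESeq2 called it higher, as did edgeR without the 24h samples (0.27 ± 0.05, adjusted p = 0.011). Pdia5 stayed between 30.0 and 37.62 RPKM in all 10 samples. Txndc5 was at 140.4 and 146.1 RPKM in subconfluent, 143.0 and 138.6 in confluent, 111.6 and 138.5 in 24h, 113.3 and 113.1 in 14d, and 101.9 and 102.7 in 21d cells. Its 21d samples were its lowest. With all samples in the fit, Txndc5 was the only one of the 39 genes called lower in 21d than in subconfluent cells, by −0.37 ± 0.10 (adjusted p = 0.016). Without the 24h samples Sec23a was also called lower, at −0.26 ± 0.08, and this comparison crosses the library sets.

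Of the 4 stress sensors 0 were called higher and 0 lower at 21d than at 14d by edgeR, with changes of 0.05 to 0.46 and a median of 0.28, while 2 were higher at an unadjusted p under 0.05 and DESeq2 called 1, Atf6b. Without the 24h samples edgeR called 2 of the 4 higher, Atf6 by 0.46 ± 0.06 (adjusted p = 0.0031) and Ern1 by 0.30 ± 0.07 (adjusted p = 0.026). Ern1 was at 3.417 and 3.012 RPKM in subconfluent, 2.468 and 2.28 in confluent, 1.803 and 3.606 in 24h, 4.613 and 4.554 in 14d, and 6.04 and 5.795 in 21d cells. It was lowest in confluent and 24h cells and higher in both late stages, with 24h replicates that differed 2-fold. Eif2ak3 was at 7.919 and 8.087 RPKM in subconfluent, 11.48 and 9.797 in confluent, 6.675 and 10.38 in 24h, 12.78 and 11.94 in 14d, and 13.71 and 13.29 in 21d cells. Atf6 was at 7.419 and 7.394 RPKM in subconfluent, 5.36 and 5.076 in confluent, 3.47 and 5.772 in 24h, 5.602 and 5.873 in 14d, and 8.677 and 7.897 in 21d cells. From 14d to 21d the 95% confidence interval of the change was −0.29 to 0.88 for Ern1 and −0.33 to 0.44 for Eif2ak3. It was 0.03 to 0.89 for Atf6 and 0.04 to 0.49 for its relative Atf6b. Canx, with the smallest estimate among the 11 chaperones at 0.90, had an interval of 0.68 to 1.11. That interval overlaps those of Ern1 and Atf6, and a difference between sensors and chaperones was not tested.

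Of the 5 transcription factors and regulators of translation, 3 rose from 14d to 21d. Ddit3, which encodes CHOP, was at 19.64 and 20.09 RPKM in subconfluent, 18.52 and 18.51 in confluent, 26.67 and 15.5 in 24h, 19.62 and 16.52 in 14d, and 157.9 and 145.4 in 21d cells. The 8 samples up to 14d ranged from 15.5 to 26.67, both ends of that range being 24h samples, and the 21d samples lay far above it, with a rise of 3.0 ± 0.27 (7.97-fold, adjusted p = 0.00085). Ddit3 shares 68 exon bases with Mars, on the opposite strand, which rose by 0.56 ± 0.10, and whether counting used the strand is not given in the sources used here. Ppp1r15a, which encodes GADD34 and restores translation after PERK has slowed it, was at 6.292 and 6.773 RPKM in subconfluent, 9.955 and 9.607 in confluent, 6.513 and 7.783 in 24h, 7.302 and 7.285 in 14d, and 31.01 and 30.92 in 21d cells. It was higher in confluent than in subconfluent cells and rose by 2.01 ± 0.09 at 21d (4.03-fold, adjusted p = 0.00016). It shares 12 exon bases with Tulp2 on the opposite strand, which rose by 2.0 ± 0.29.

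Xbp1, Creb3l1 and Creb3l2 had already risen by 14d. Xbp1 was at 27.9 and 28.81 RPKM in subconfluent, 29.47 and 30.84 in confluent, 28.9 and 32.46 in 24h, 43.57 and 40.82 in 14d, and 72.13 and 76.62 in 21d cells. It climbed in 2 steps, by 0.70 ± 0.08 from confluent cells to 14d (adjusted p = 0.00082) and by 0.74 ± 0.08 from 14d to 21d (adjusted p = 0.0016). Creb3l1, the collagen-related factor OASIS, was at 93.1 and 89.22 RPKM in subconfluent, 91.36 and 85.54 in confluent, 83.27 and 106.0 in 24h, 157.1 and 156.4 in 14d, and 163.1 and 150.4 in 21d cells. It rose between confluent cells and 14d by 1.04 ± 0.11 (adjusted p = 0.00054), and its 14d range lay inside its 21d range. Creb3l2, which encodes the related factor BBF2H7, was at 10.62 and 10.17 RPKM in subconfluent, 11.91 and 10.22 in confluent, 8.4 and 14.07 in 24h, 17.11 and 16.85 in 14d, and 22.59 and 20.98 in 21d cells. Its rise of 0.84 ± 0.19 from confluent cells to 14d was called (adjusted p = 0.015), and its change of 0.29 ± 0.19 from 14d to 21d was not (adjusted p = 0.45), though without the 24h samples it was, at 0.29 ± 0.08 (adjusted p = 0.04).

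**Figure D4:**
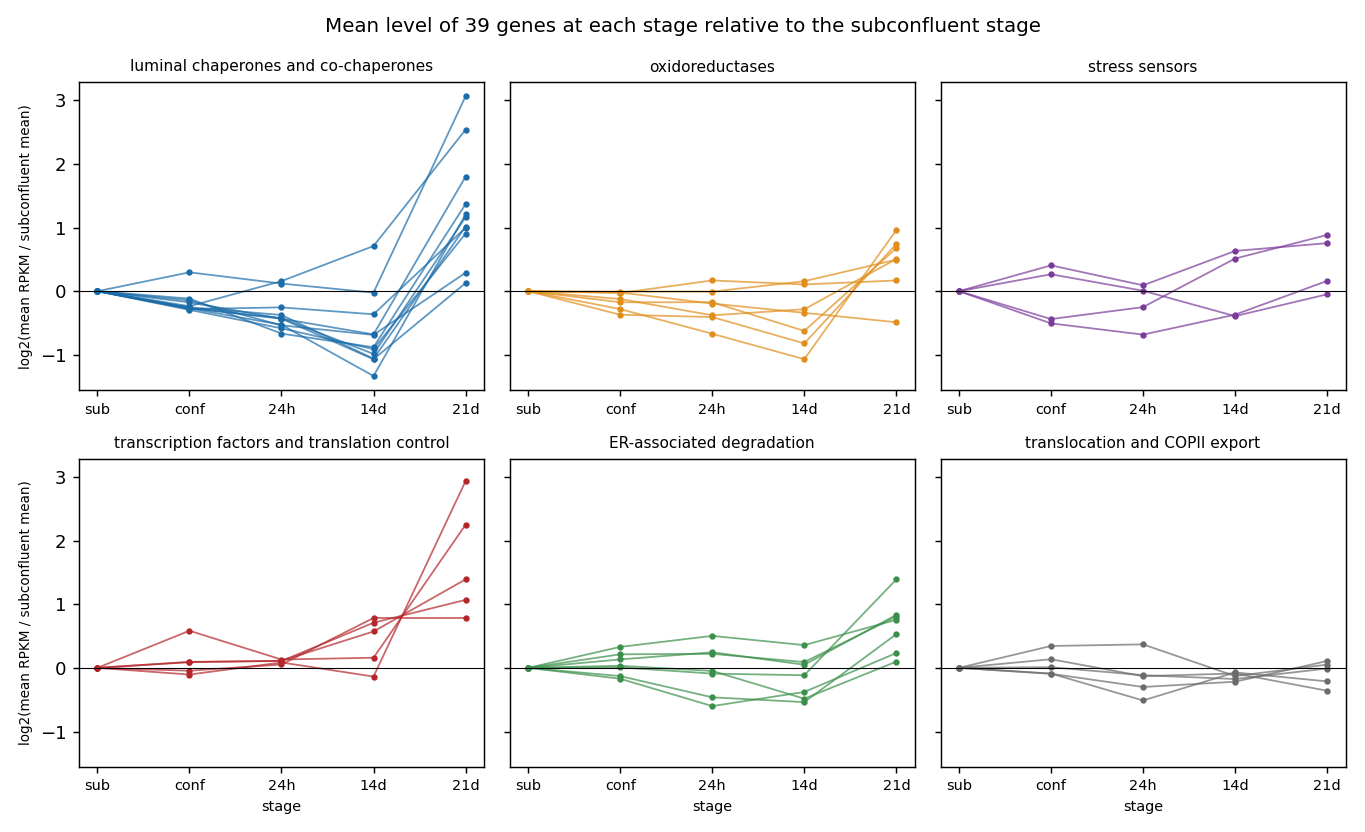
Mean level of 39 genes (without Derl3) at each stage, as log2 of the stage's mean RPKM over the subconfluent mean, in panels by role; each line is a gene and the x axis gives the stages (sub, subconfluent; conf, confluent). Most chaperones are lowest at 14d and all lie above 0 at 21d, Xbp1, Creb3l1 and Creb3l2 are already above 0 at 14d, and the genes of translocation and COPII export stay near 0.

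ER-associated degradation, which returns misfolded proteins to the cytosol for breakdown, had 5 of 7 tested genes higher at 21d than at 14d, with a median of 0.64. Herpud1 was at 36.89 and 35.45 RPKM in subconfluent, 36.0 and 36.77 in confluent, 33.56 and 34.39 in 24h, 33.94 and 32.85 in 14d, and 94.84 and 94.76 in 21d cells. It was level up to 14d, with a range of 32.85 to 36.89, and rose by 1.43 ± 0.07 (2.70-fold, adjusted p = 0.0002). Edem1, a lectin that directs glycoproteins to degradation, rose by 1.0 ± 0.09, and Derl1, a channel component, by 0.71 ± 0.10. Syvn1, the ubiquitin ligase whose element is printed above, rose by 0.64 ± 0.07, from 18.1 ± 0.179 to 29.7 ± 0.648 RPKM, and Derl2 by 0.51 ± 0.09, from 5.39 ± 0.0422 to 8.07 ± 0.367. Derl2 shares 231 exon bases with Mis12 and Syvn1 shares 91 with Mrpl49, both on the opposite strand, with changes of −0.20 ± 0.09 and −0.16 ± 0.11. The changes of 0.54 ± 0.21 for Sel1l, the adaptor of SYVN1, and of 0.32 ± 0.13 for Edem2 were not called (adjusted p of 0.17 and 0.18). Without the 24h samples Sel1l was called, at 0.54 ± 0.09 (adjusted p = 0.0059).

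Derl3 belongs to the same group, and although its promoter holds a full ERSE it was at 0.0365 and 0.0243 RPKM in subconfluent, 0.0221 and 0.0418 in confluent, 0.0531 and 0.0191 in 24h, 0.0585 and 0.0684 in 14d, and 0.043 and 0.0847 in 21d cells. With at most 9 counts in a sample, a difference between stages was not detectable at this depth.

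Of the genes of entry into and exit from the ER, 0 of 5 were called in the step from 14d to 21d in either direction, with a median of 0.09. At 3.77% higher and 5.95% lower over all genes this count is near the background, and a difference from the chaperones was not tested. Sec61a1, the channel of the translocon, was at 83.61 and 85.47 RPKM in subconfluent, 86.63 and 83.51 in confluent, 73.17 and 82.76 in 24h, 76.68 and 72.93 in 14d, and 84.29 and 83.49 in 21d cells. All 10 samples fell within 72.93 to 86.63, and the confidence interval of its change from 14d to 21d was −0.10 to 0.28. Sec24d, a cargo-binding subunit of the COPII coat, was at 70.31 and 72.98 RPKM in subconfluent, 71.24 and 63.43 in confluent, 30.66 and 69.79 in 24h, 68.38 and 67.72 in 14d, and 63.01 and 60.67 in 21d cells. Replicate A of 24h stood far below the other 9 samples, and the interval was −0.90 to 0.47. Mia3, which encodes the collagen cargo receptor TANGO1, was at 34.6 and 32.48 RPKM in subconfluent, 33.41 and 29.31 in confluent, 21.08 and 33.29 in 24h, 29.13 and 28.37 in 14d, and 35.74 and 36.4 in 21d cells, with an interval of −0.15 to 0.65. For Sec23a the interval was −0.84 to 0.14 and for Sec61b −0.50 to 0.71, so a 2-fold rise lies outside all 5 intervals. For these 5 genes 0 also passed an unadjusted p under 0.05 or DESeq2, and without the 24h samples Sec23a was called lower, at −0.35 ± 0.08, and Mia3 higher, at 0.26 ± 0.07.

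Read against the promoter sequences, 10 of the 11 genes with ERSE or ERSE-II were tested, and 10 of these 10 were higher at 21d than at 14d, with changes of 0.64 to 2.47 and a median of 1.46. Of the 22 genes with a window but neither element, 9 were higher, with changes of −0.35 to 3.02 and a median of 0.31. Over all genes tested, 3.77% were higher in this step. The 9 include Sdf2l1, Pdia4, Dnajb9 and Ppp1r15a, so a rise also occurred without these letters in the window. The genes were chosen with earlier results of these data known and were not matched on level or role. The difference was not tested.

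From confluent cells to 14d most chaperones moved the other way. Of the 39 genes tested, 7 were higher and 10 were lower, where 16.8% and 15.3% of all genes tested were, so the counts are near the background, and the median was 0.01. More than 2-fold higher were 3, Ern1, Dnajb9 and Creb3l1 (9.14% of all genes). Of the 11 chaperones 7 were lower, with a median of −0.40: Calr by −0.85 ± 0.11 (adjusted p = 0.0011), Dnajb11 by −0.67 ± 0.11, Manf by −0.60 ± 0.18, Hyou1 by −0.55 ± 0.12, Creld2 by −0.51 ± 0.14, Hsp90b1 by −0.40 ± 0.10 and Canx by −0.33 ± 0.09. Dnajb9 was higher, by 1.16 ± 0.12 (adjusted p = 0.00052), and the change of Hspa5, −0.20 ± 0.10, was not called (adjusted p = 0.17), though without the 24h samples it was, at −0.22 ± 0.06 (adjusted p = 0.016). Pdia4 was lower by −0.57 ± 0.09, Atf6b by −0.44 ± 0.10 and Derl2 by −0.30 ± 0.09. The other genes that were higher were Ern1, by 1.17 ± 0.25 (adjusted p = 0.012), Creb3l1, Creb3l2 and Xbp1, given above, P4hb by 0.38 ± 0.09 and Pdia5 by 0.35 ± 0.11.

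This comparison crosses the library sets, and scaling by library size alone moved the median of all genes by −0.23 and that of the 39 genes to −0.22, with 3 genes higher. Without the 24h samples 10 genes were higher and 15 lower, where 25.5% and 25.2% of all genes tested were. The 14d samples enter both this comparison and that of 21d with 14d, so a low 14d value adds to both.

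Before differentiation medium was added, and in its first 24 h, few of the genes were called. In confluent against subconfluent cells 1 gene was higher and 0 were lower, where 1.95% and 1.34% of all genes were, and 7 were lower at an unadjusted p under 0.05. The gene was Ppp1r15a, which rose by 0.56 (adjusted p = 0.019) and was not called under 9 of the alternative settings. Without the 24h samples it stayed called, at 0.56 ± 0.06 (adjusted p = 0.0025). DESeq2 called 2 higher, with Syvn1 beside it, and 5 lower, Hspa5, Hsp90b1, Calr, Dnajc3 and Pdia4. The median of the 39 genes was −0.12, with 12 positive, and both confluent replicates were below both subconfluent replicates for 21 genes (30.3% of all genes) and above both for 8 (28.8%). The number of genes called depends on the 24h samples, whose spread enters the pooled estimate. Without them 11 genes were lower and 3 higher, where 7.81% and 7.63% of all genes were. The 11 were Hspa5, Hsp90b1, Calr, Creld2, Manf, Dnajc3, Pdia3, Pdia4, Pdia6, Ern1 and Atf6, with changes from −0.19 ± 0.05 for Pdia3 to −0.53 ± 0.06 for Atf6, all less than 2-fold. These 11 were named after their values were seen.

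In 24h against confluent cells 0 genes were called in either direction, where 3.59% of all genes were higher and 1.57% lower. At an unadjusted p under 0.05, 2 were higher and 5 lower, and DESeq2 called 1 higher, Dnajb9, and 5 lower, Canx, Hyou1, Pdia4, Ppp1r15a and Edem1. The median was −0.07, and both 24h replicates were above both confluent replicates for 9 genes (23% of all genes), below for 9 (21.3%) and overlapped for 21.

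In 14d against 24h cells 6 genes were higher and 2 lower, where 9.08% and 8.20% of all genes were. Those higher were Creb3l1 by 0.86 ± 0.11 (adjusted p = 0.003), Ern1 by 0.90 ± 0.25, Creb3l2 by 0.73 ± 0.19, Dnajb9 by 0.68 ± 0.12, Eif2ak3 by 0.67 ± 0.17 and Xbp1 by 0.59 ± 0.08, which are sensors, transcription factors and a DnaJ protein. Those lower were Calr by −0.68 ± 0.10 (adjusted p = 0.0066) and Dnajb11 by −0.51 ± 0.11. The balance of higher and lower turned under other settings, with 3 higher and 8 lower by library size alone, 3 and 11 by limma on RPKM, and 7 and 8 by DESeq2. This step crosses the library sets too, and with only these 2 groups in the fit 0 genes were called either way.

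Over the whole course, from subconfluent to 21d cells, 27 genes were higher and 1 lower, where 27.3% and 23.5% of all genes were. Of these 15 were more than 2-fold higher (16.3% of all genes), and the median was 0.87, against 0.04 for all genes tested. Sdf2l1, Ddit3, Dnajb9 and Ppp1r15a changed most, by 3.18 ± 0.21, 3.05 ± 0.27, 2.65 ± 0.12 and 2.36 ± 0.09. Hspa5 was higher by 1.92 ± 0.10, Xbp1 by 1.51 ± 0.08, Herpud1 by 1.51 ± 0.07, Hyou1 by 1.48 ± 0.12, Calr by 1.32 ± 0.11, Creld2 by 1.28 ± 0.14 and Creb3l2 by 1.18 ± 0.19. Manf, Dnajc3, Pdia4 and Hsp90b1, the rest of the 15, were higher by 1.02 to 1.13. Below 2-fold, Derl1 (0.95 ± 0.10), Syvn1 (0.93 ± 0.07), Creb3l1 (0.90 ± 0.11), Pdia6 (0.86 ± 0.13), Pdia3 (0.79 ± 0.10), Edem1 (0.64 ± 0.09), Ero1l (0.62 ± 0.10) and Canx (0.40 ± 0.09) were also called. The gains of P4hb (0.61 ± 0.09), Eif2ak3 (0.87 ± 0.17), Ern1 (1.0 ± 0.25) and Edem2 (0.87 ± 0.13) were called here, and edgeR called none of these 4 in the last step with all samples in the fit. Dnajb11, whose change from 14d to 21d was 1.12, was at 0.24 ± 0.11 against subconfluent cells and not called (adjusted p = 0.1), while without the 24h samples it was, at 0.23 ± 0.06 (adjusted p = 0.015). Derl2, Atf6, Mia3, Sel1l and Pdia5 were also added as higher without the 24h samples, and Sec23a as lower. In that fit 32.9% of all genes were higher and 31.1% lower. Between subconfluent and 21d cells the library set also differs, and no value within a set can be had.

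Other genes of the pathway, in 6 lists of 103 genes of which 101 were tested, give the setting of the rise from 14d to 21d: 16 were higher and 3 lower, with a median of 0.06, beside 23 and 0 of the 39. Most of these were targets of the integrated stress response, which includes PERK and ATF4 but is not limited to PERK, with 9 of 14 higher and 1 lower and a median of 1.09. The gene that was lower was Slc7a11, at −1.06 ± 0.13 (adjusted p = 0.0024). Whether PERK took part was not tested. Trib3, a pseudokinase induced by ATF4 and CHOP, was at 4.541 and 4.563 RPKM in subconfluent, 3.702 and 4.392 in confluent, 3.139 and 2.614 in 24h, 5.055 and 3.415 in 14d, and 88.45 and 92.25 in 21d cells, a rise of 4.34 ± 0.22 (adjusted p = 0.0002). Up to 14d it ranged from 2.614 to 5.055 RPKM, and both 21d samples were far above that range. Chac1, which degrades glutathione, was at 12.16 and 15.69 RPKM in subconfluent, 24.7 and 25.78 in confluent, 16.99 and 17.65 in 24h, 5.27 and 4.117 in 14d, and 29.48 and 27.85 in 21d cells, and rose by 2.53 ± 0.16 from a low point at 14d. Atf4 itself, named after its values were seen, was at 229.2 and 247.7 RPKM in subconfluent, 114.4 and 110.6 in 14d and 240.7 and 221.4 in 21d cells, with a rise of 0.96 ± 0.14 from 14d to 21d and ranges that overlap between 21d and subconfluent cells.

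**Figure D5:**
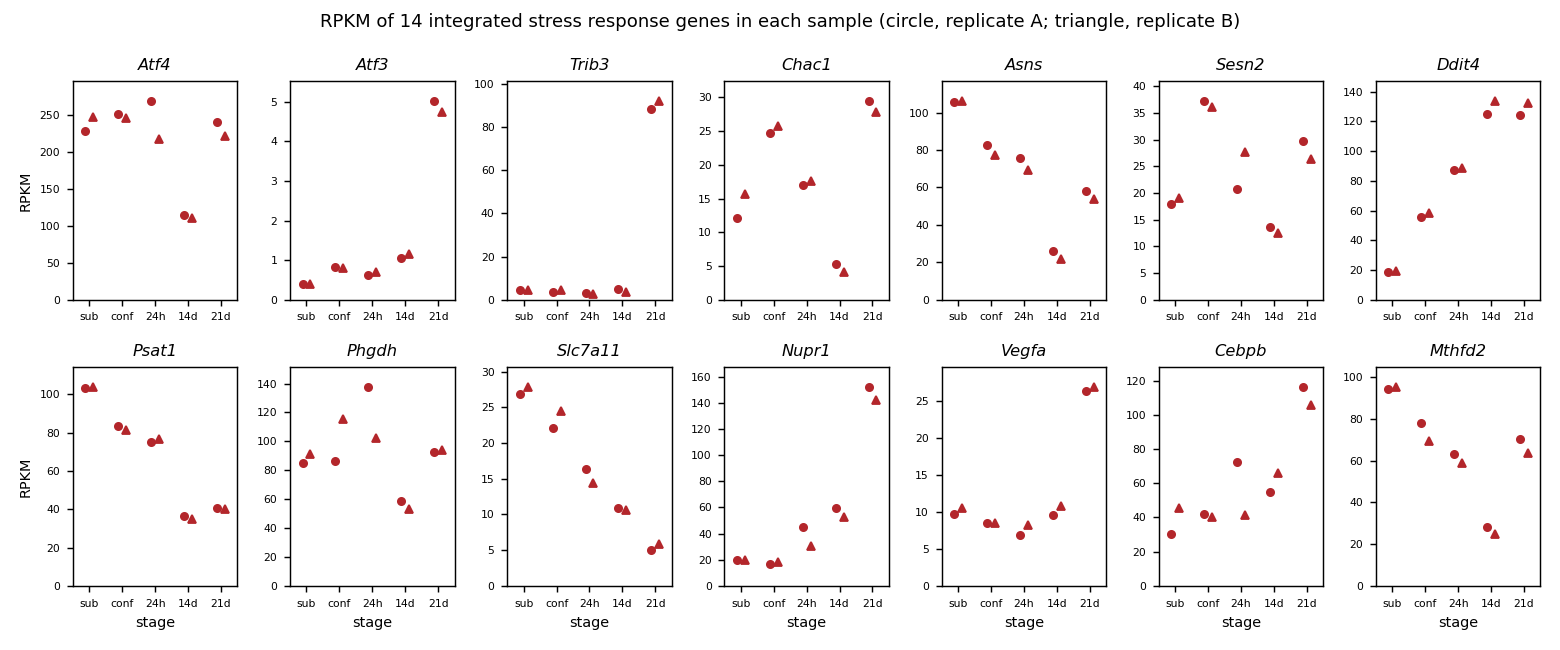
RPKM of 14 genes of the integrated stress response in each sample, with stages on the x axis (sub, subconfluent; conf, confluent), circles for replicate A, triangles for replicate B and each y axis starting at 0. Trib3, Atf3, Nupr1 and Vegfa are highest in both 21d samples, while Asns, Psat1 and Slc7a11 are highest in subconfluent cells.

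The remaining lists had fewer calls, to be read against the background of 3.77% higher and 5.95% lower. Translocon, signal peptidase and oligosaccharyltransferase had 4 of 19 higher and 0 lower, with the signal peptidase subunits Spcs3 and Spcs2 at 0.81 ± 0.09 and 0.67 ± 0.11. The COPII coat and ER exit had 1 of 20 higher, Sec23b at 0.41 ± 0.10, and 1 lower, the outer coat subunit Sec13 at −0.59 ± 0.12. Further genes of folding and glycan control had 1 of 19 higher, the oxidase Ero1lb at 2.03 ± 0.26 (0.547 ± 0.0181 to 2.35 ± 0.170 RPKM), and 1 lower, the collagen-related prolyl isomerase Fkbp14 at −0.51 ± 0.09. Partners of the sensors had 1 of 16 higher, Wfs1, an ER membrane protein, at 1.1 ± 0.13. Of 13 further genes of ER-associated degradation 0 were called either way. Beside these counts stand 11 of 11 lumenal chaperones and 9 of 14 stress response targets, and the difference between lists was not tested.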

How the data were processed

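RNA-seq of MC3T3-E1 cells at 5 stages with 2 replicates each was analysed. Per the labels, reads were handled with FastQC, TopHat2 2.0.9 and R 3.0.1 on mm10; the counting tool, annotation and strand setting are not given in the sources used here. The authors deposited counts of reads per gene, without normalization, for 40620 genes, and RPKM values, which they made from the counts, gene length and a number of reads 1.44 to 1.60 times smaller than the total count. The samples 14d A and 21d B were sequenced in 2 lanes, and the merged column was used.

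Identifiers were matched to GENCODE vM21, with a symbol for 39547. Counts were fitted with edgeR 4.0.16 in R 4.3.3 (filterByExpr over the 5 stages, TMM, quasi-likelihood, Benjamini-Hochberg adjustment), with 1 group term and all 10 samples, for 6 comparisons and an F test over stages. The SE was taken from the fold change and the F statistic (log2 change over root F), and confidence intervals are 95%. Intervals use the spread pooled over stages. Total counts of 44736156 to 162939333 per sample limited precision mainly for rare genes such as Derl3, and no interval here covers counting error alone. The pipeline was tested on simulated data.

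The 40 genes and the lists were chosen with earlier results of these data known. Each of the 40 is named where it was called; values in every sample are given for 18 named genes and for any other called with more than 2-fold change; in each further list the 2 called genes of largest change are named for each comparison, in the report or among the other observations. Promoter sequences and starts are from RefSeq on GRCm38.p6, searched for exact letters on both strands, and 7 of the genes had no window at hand. Alternatives were other scalings, DESeq2 1.42.0, other filters and thresholds, limma 3.58.1 on log2(RPKM + 1) and log2(RPKM + 0.1), the lane sums, removal of a trend with gene length, fewer samples, a replicate block and each sample left out in turn.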

Additional observations from a re-analysis of the deposited data

How the results depend on the processing

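The 23 genes higher at 21d than at 14d became 22 to 30 when any 1 sample was left out, and their count stayed within 1.5 times of 23 under each of the 24 alternatives run. The 77 called values were recomputed 1763 times, and 0 changed sign. Of these, 1608 were counted as kept. They include the values with the gene length trend removed, which have no p-value and were judged by sign alone. The other 155 no longer passed the threshold. Those lost most often were Pdia5 at 14d against confluent cells (14 settings) and Creb3l2, Ern1 and Eif2ak3 at 14d against 24h (13 each). Of 3541 recomputed values that were not called, 181 had the other sign.

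Counts of genes higher and lower moved as follows. For 14d against 24h they were 3 and 8 with library size alone, 3 and 11 with limma on either RPKM scale, 3 and 1 at an adjusted p under 0.01, and 0 and 0 past 2-fold or with only those groups fitted, and DESeq2 gave 8 lower. For 14d against confluent they were 4 and 16 with limma, 3 and 0 past 2-fold and 3 and 3 at 0.01, with 3 higher by library size. For 24h against confluent DESeq2 gave 1 and 5, and limma 2 lower with a pseudocount of 1 and 1 lower with 0.1. For confluent against subconfluent DESeq2 gave 2 and 5, the fit of only those groups 1 lower and the fit without 24h samples 3 and 11, and 0 were higher with library size alone, past 2-fold or at 0.01. For 21d against subconfluent 15 were higher past 2-fold, and 0 were lower with upper-quartile factors, past 2-fold or at 0.01. With only the groups compared, or without the 24h samples, 2 were lower in 21d against both 14d and subconfluent cells.

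When 1 sample was left out, counts of higher and of lower genes ran from 2 to 11 and from 0 to 14 for 14d against 24h, from 3 to 10 and from 3 to 16 for 14d against confluent, from 0 to 8 and from 0 to 12 for 24h against confluent, from 0 to 3 and from 0 to 11 for confluent against subconfluent, and from 25 to 33 and from 0 to 2 for 21d against subconfluent. From 0 to 2 were lower in 21d against 14d, and 28 to 38 differed over stages. The 24h samples gave the highest counts: without 24h A or B, 4 and 12 were lower at 24h than in confluent cells, and 11 and 11 lower in confluent than in subconfluent cells. Without 24h B, 14 were lower at 14d than at 24h. The other causes were not tested.

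Scaling by upper quartile moved the median of all genes by 0.13 in 21d against subconfluent cells, and library size alone by −0.23 in 14d against confluent, −0.16 in 21d against subconfluent and −0.13 in 24h against confluent cells. The medians of the 39 genes were then 1.0, −0.22 and 0.71 in the first 3. The replicate letters did not pair the samples (correlation of deviations between stages from −0.184 to 0.10); with the replicate block, 3 genes were higher from 24h to 14d, and 23 from 14d to 21d.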

Other observations

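In the further lists, counts are read against all genes tested. At 14d against confluent cells, where 16.8% of all genes were higher and 15.3% lower, integrated stress response targets were mostly lower, 8 of 14, with 4 higher and a median of −0.76: Chac1 was at −2.21 ± 0.15 and Nupr1, a small stress-induced nuclear protein, at 1.88 ± 0.20. Partners of the sensors had 7 of 16 lower and 1 higher, with Bax, which promotes apoptosis, at −1.46 ± 0.30 (394 ± 133 to 124 ± 8.33 RPKM, SD, n = 2) and Creb3l3 at 1.92 ± 0.32 from a level of 0.192 RPKM. Folding and glycan control had 4 of 19 higher and 0 lower, with Sil1, an exchange factor of BiP, at 0.93 ± 0.15. Fkbp14 was at 0.68 ± 0.09 in that list. Erlec1 was at 0.76 ± 0.07 and Vcp at −0.67 ± 0.13 in ER-associated degradation (3 of 13 higher and 3 lower), Kdelr3 at 0.52 ± 0.10 and Sec16a at 0.50 ± 0.15 in ER exit (3 of 20 and 3), and Spcs3 at −0.46 ± 0.08 and Rpn1 at −0.45 ± 0.11 in the translocon list (2 of 19 and 2). Counts of 2 to 4 of 13 to 20 genes are near the background. These values cross the library sets.

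Sil1 and Hyou1, the exchange factors of BiP in these lists, differed in course. Sil1 was at a mean of 17.2 RPKM in confluent and 28.2 in 14d cells, while Hyou1 was at 20.2 and 11.9. At 21d against subconfluent cells both were higher, by 1.40 ± 0.15 for Sil1 and 1.48 ± 0.12 for Hyou1.

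At 21d against subconfluent cells, ER-associated degradation genes outside the set had 4 of 13 higher and 4 lower, near the 27.3% and 23.5% of all genes. Vcp, the ATPase that pulls proteins out of the ER, was at −1.02 ± 0.13 (117 ± 3.75 to 53.3 ± 2.91 RPKM), while Herpud2 was at 0.95 ± 0.11. Bak1 was at −1.59 ± 0.10, with 33.9 ± 2.12 RPKM in subconfluent and 10.4 ± 1.07 in 21d cells. In the same comparison, integrated stress response targets had 8 of 14 higher and 4 lower. Trib3 was at 4.43 ± 0.22 and Atf3, a stress-induced transcription factor, at 3.72 ± 0.16. The 4 lower were Slc7a11 at −2.21 ± 0.13, Psat1 at −1.24 ± 0.08, Asns at −0.81 ± 0.12 and Mthfd2 at −0.38 ± 0.11. In the other lists, Ero1lb was at 2.62 ± 0.26, Creb3l3 at 2.28 ± 0.34, Ssr4 at 0.83 ± 0.24 and Sec11c at 0.60 ± 0.20. The coat genes Sec13 and Sar1b were at −0.96 ± 0.12 and −0.62 ± 0.11.

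In confluent against subconfluent cells the called genes of these lists were integrated stress response targets, with 4 of 14 higher, where 1.95% of all genes were. Ddit4, an inhibitor of mTOR signalling, was at 1.57 ± 0.09 in confluent against subconfluent and at 0.71 ± 0.09 in 24h against confluent cells, Atf3 at 1.0 ± 0.15 in the first step and Nupr1 at 1.21 ± 0.20 in the second. Also at 24h, Kdelr3 was at 0.60 ± 0.10, Os9 at 0.48 ± 0.09, Nploc4 at −0.45 ± 0.08 and Bak1 at −0.51 ± 0.10. At 14d against 24h, Chac1 was at −1.75 ± 0.15, Asns at −1.47 ± 0.12, Eif2s1 at −0.68 ± 0.08, Bak1 at −0.58 ± 0.10, Vcp at −0.53 ± 0.13, Ufd1l at −0.51 ± 0.09, Ostc at −0.50 ± 0.14 and Spcs3 at −0.33 ± 0.08, while Mogs was at 0.41 ± 0.11 and Fkbp14 at 0.34 ± 0.09.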
